A study of Mus musculus with 2 samples.

Results

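The genes described here are 40 named genes of smooth muscle and of the actin and myosin machinery, of 22180 genes with a value on the array. They were chosen by name, all 40 were matched to a probeset, and a gene with several probesets is given by the one with the highest mean signal. The series holds 2 GeneChip Mouse Gene 2.0 ST arrays of small intestinal subepithelial myofibroblasts from wild-type BALB/c mice. The stimulated array holds RNA of cells that spent 1 day with homogenised intestinal eosinophils (5 mg/ml), and the non-stimulated array RNA of cells kept without it. Each array is 1 pool of RNA from 3 cultures, so that every difference below describes 2 pools, carries no error and has no test. The age and sex of the mice and the passage of the cells were not stated, and in a bulk sample fewer cells of a type and less RNA per cell cannot be told apart.

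Contraction in smooth muscle and in myofibroblasts is driven by myosin filaments that pull on actin filaments after myosin light chain kinase has phosphorylated the regulatory light chain. A fully differentiated smooth muscle cell adds muscle forms of these parts, such as smooth muscle myosin, calponin 1 and desmin, whereas most cells of the body carry non-muscle relatives of the same families. In smooth muscle, serum response factor (SRF) binds CArG boxes near many contractile genes, and its partner myocardin makes that binding productive. The members were therefore sorted by textbook expression into 14 smooth muscle-restricted genes (some also used by striated muscle), 6 muscle-enriched genes that many cells express at a lower level, and 20 broadly expressed genes.

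The values are log2 signals after robust multi-array averaging (RMA), and a difference is the stimulated minus the non-stimulated value on that scale. Signals of different genes cannot be ranked against each other on this array, since each probeset has its own response. The background level, under which 95% of 1405 odorant and vomeronasal receptor probesets lay, was 5.57 on the stimulated and 5.58 on the non-stimulated array, and 14065 genes passed it on 1 or both arrays. All 10 fibroblast markers were above background on both arrays, among them Fn1 (fibronectin; 13.31 stimulated, 13.28 non-stimulated) and Col1a1 (a type I collagen chain; 12.83 stimulated, 12.85 non-stimulated), with a median difference of 0.00. Single fibroblast markers ran from -0.26 for Lum (lumican, a matrix proteoglycan) to 0.56 for Pdgfra, a receptor of platelet-derived growth factor, both named after their values were seen. One label field names eosinophils as the source of the RNA, but of 7 eosinophil markers only Alox15 (5.87 stimulated, 5.68 non-stimulated) passed background, and the granule genes Epx and Prg2 did not. Of the muscle members, 13 of the 14 smooth muscle-restricted genes passed it on both arrays, Pln being the exception, as did all muscle-enriched and broadly expressed members.

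Contractile genes were lower on the stimulated array in most cases, and the smooth muscle-restricted genes were further down than the broadly expressed ones. Of 39 members above background, 34 were lower and 5 higher (87.2% lower, against 48.2% of all genes above background). By at least 0.25, which is 1.19-fold, 15 members were lower (38.5%, against 7.64% of all genes) and none was higher. By at least 0.5, which is 1.41-fold, 5 members were lower (12.8%, against 1.15%), and none reached 2-fold (0.0427% of all genes were 2-fold lower). These 5 were Cnn1, Cav1, Lmod1, Des and Myh11. The median difference over the members was -0.18, against 0.00 over all genes above background. Differences of this size were rarer among bright genes, and 24 members lay in the brightest of 4 equal sets of genes, above a mean of 8.62. Of these 24, 8 were lower by at least 0.25, against 2.65% of that set, and 3 by at least 0.5, against 0.54%.

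**Figure D1:**
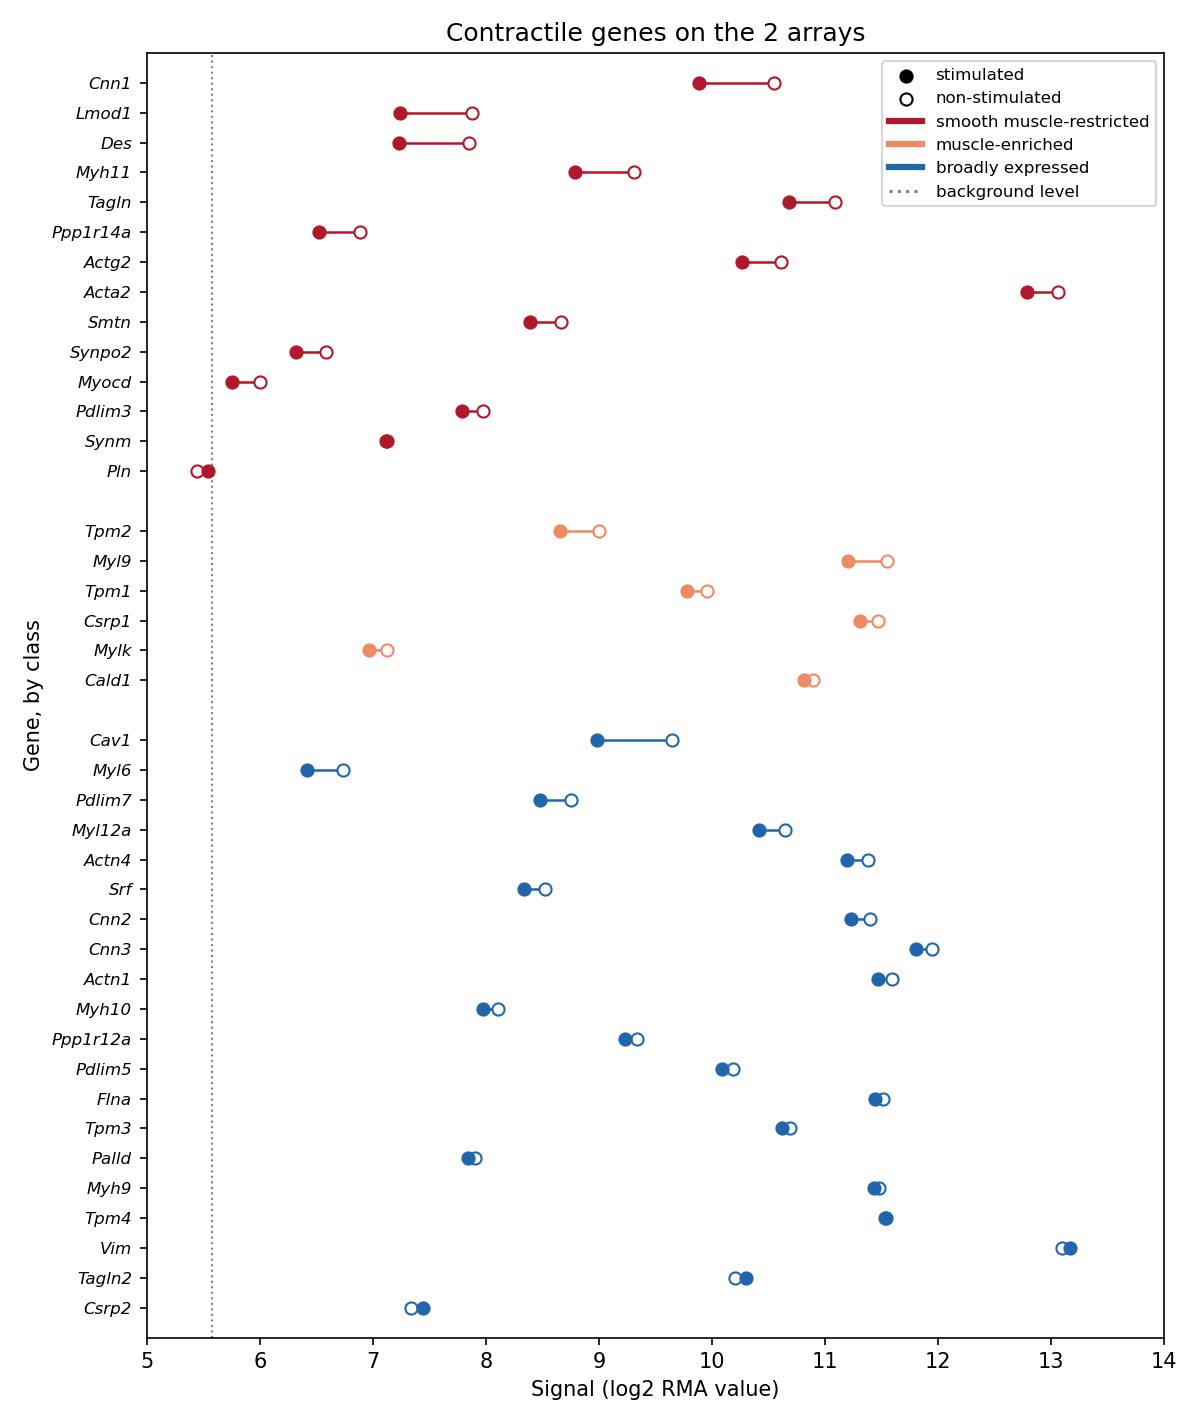
Each line is 1 gene, with its log2 RMA signal on the stimulated array (filled) and the non-stimulated array (open) along the horizontal axis; genes are grouped by class and ordered by difference, and the dotted line is the background level. The filled point lies left of the open one for most genes, most widely for Cnn1, Lmod1, Des, Myh11 and Cav1, while Pln lies under background on both arrays.

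Of all genes above background, 48.2% were lower, 7.64% by at least 0.25 and 1.15% by at least 0.5. By class, 12 of the 13 smooth muscle-restricted genes above background were lower, with a median difference of -0.35. Of these, 10 were lower by at least 0.25 (76.9% of the 13) and 4 by at least 0.5. The median equals a signal at 78.3% of the non-stimulated one. All 6 muscle-enriched genes were lower, 2 of them by at least 0.25, with a median of -0.17. Of the 20 broadly expressed genes 16 were lower, 3 of them by at least 0.25 (15.0%) and 1 by at least 0.5, with a median of -0.12. The restricted minus the broad median was -0.24. The ranges of the classes overlapped, with 1 broadly expressed gene (Cav1) below the restricted median and 1 smooth muscle-restricted gene (Synm) above the broad median. Between the medians they overlapped further. The broadly expressed Myl6 (-0.31) was lower than the restricted Acta2, Smtn, Synpo2, Myocd, Pdlim3 and Synm. With the muscle-enriched genes counted as restricted, the gap between the medians was -0.17.

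**Figure D2:**
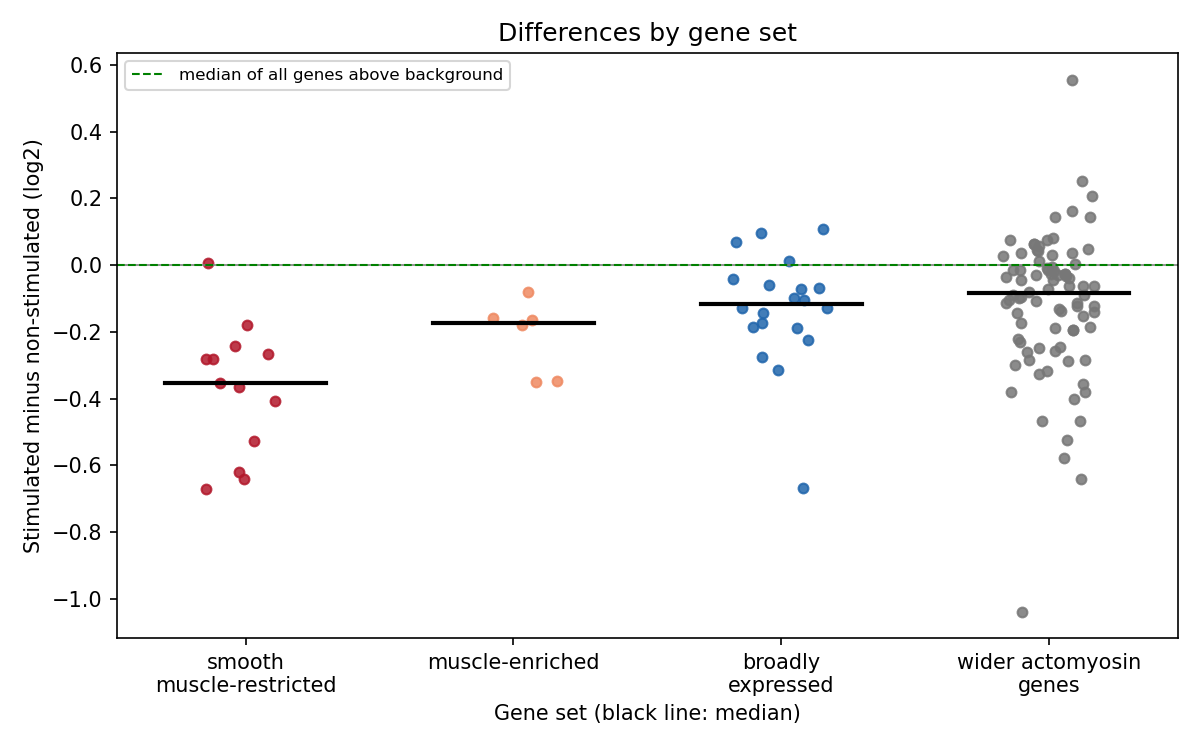
Points are genes above background, the vertical axis is the stimulated minus the non-stimulated log2 signal, black lines are medians and the green dashed line is the median of all genes. The medians are -0.35 for smooth muscle-restricted, -0.17 for muscle-enriched, -0.12 for broadly expressed members and -0.08 for the wider actomyosin genes.

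Both muscle actins among the members were lower. Acta2, smooth muscle alpha-actin and the usual marker of myofibroblasts, read 12.78 on the stimulated array and 13.07 on the non-stimulated array, 1.22-fold lower. Actg2, the gamma-actin of gut smooth muscle, read 10.26 stimulated and 10.61 non-stimulated, 1.28-fold lower. Actin genes are near identical in their coding parts, so that a probeset of one may take up signal of another. The cytoplasmic actins Actb and Actg1, from the wider list described below and named after their values were seen, differed by 0.04 and 0.06, in the other direction. Acta1, the skeletal muscle actin, from the marker lists described below, read 6.69 stimulated and 7.20 non-stimulated, a difference of -0.51. The cardiac actin Actc1 was under background on both arrays.

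Proteins that bind the actin filament gave both the most negative difference of all members and several near 0. Cnn1, calponin 1 of smooth muscle, read 9.88 on the stimulated array and 10.55 on the non-stimulated array, 1.59-fold lower, and of 3516 genes in the brightest set 8 were as low or lower, Cnn1 included. Its relatives Cnn2 (11.23 stimulated, 11.40 non-stimulated) and Cnn3 (11.80 stimulated, 11.94 non-stimulated), which many cells express, differed by -0.17 and -0.14. Lmod1, leiomodin 1, which nucleates actin filaments in smooth muscle, read 7.24 stimulated and 7.88 non-stimulated, 1.56-fold lower. Tagln (transgelin, also called SM22-alpha) read 10.68 stimulated and 11.08 non-stimulated, 1.33-fold lower, while its broadly expressed relative Tagln2 read 10.30 stimulated and 10.20 non-stimulated, 1.07-fold higher. Smtn, smoothelin of contractile smooth muscle, read 8.39 stimulated and 8.67 non-stimulated, a difference of -0.28. Cald1, caldesmon, which holds actomyosin in check, read 10.81 stimulated and 10.90 non-stimulated, a difference of -0.08. So the muscle forms of calponin and transgelin differed by more than their relatives, while caldesmon, with a muscle and a non-muscle form from 1 gene, was near the broad members.

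Tropomyosins, the coiled rods along the actin filament, followed the same order. Tpm2 read 8.65 on the stimulated array and 9.002 on the non-stimulated array, a difference of -0.35, and Tpm1 read 9.78 stimulated and 9.96 non-stimulated, a difference of -0.18. Tpm3 (10.62 stimulated, 10.69 non-stimulated) and Tpm4 (11.54 stimulated, 11.53 non-stimulated), which serve mainly non-muscle cells, differed by -0.07 and 0.01. Second probesets of Tpm3 and Tpm4 gave -0.07 and 0.01 as well.

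Myosin heavy chain genes and 2 of the 3 light chain genes read lower, from -0.53 to -0.04, and the probesets of the other light chain, Myl12a, disagreed. Myh11, the heavy chain of smooth muscle myosin, read 8.79 on the stimulated array and 9.31 on the non-stimulated array, 1.44-fold lower. The non-muscle heavy chains Myh9 (11.44 stimulated, 11.48 non-stimulated) and Myh10 (7.98 stimulated, 8.10 non-stimulated) differed by -0.04 and -0.13. Of the light chains, Myl9, the regulatory chain of smooth muscle, read 11.21 stimulated and 11.55 non-stimulated, a difference of -0.35. Myl6, the essential chain shared by smooth muscle and non-muscle myosin, read 6.42 stimulated and 6.73 non-stimulated, a difference of -0.31. Myl12a, a non-muscle regulatory chain, read 10.42 stimulated and 10.64 non-stimulated, a difference of -0.23, but its probesets disagreed. A dimmer one gave 0.13, and one shared with Myl12b gave 0.19, so that no direction is drawn for Myl12a by itself. The counts of lower members and of lower broadly expressed genes include it by its brightest probeset.

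Over 14 pairs of a muscle gene and a broadly expressed relative, the muscle gene had the lower difference in 13, with the widest gap for Des against Vim (-0.69). The exception was the PDZ and LIM scaffold Pdlim3, whose difference of -0.18 lay above the -0.27 of Pdlim7. The pair of Myl9 and Myl12a is among the 13 but rests on 1 of the disagreeing Myl12a probesets. The pair of Csrp1 and Csrp2 is among the 13 as well and rests on the broad class given to Csrp2. Several of the 14 pairs share genes (Cnn1, Myh11, Pdlim3, the tropomyosins), so they are not separate cases.

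**Figure D3:**
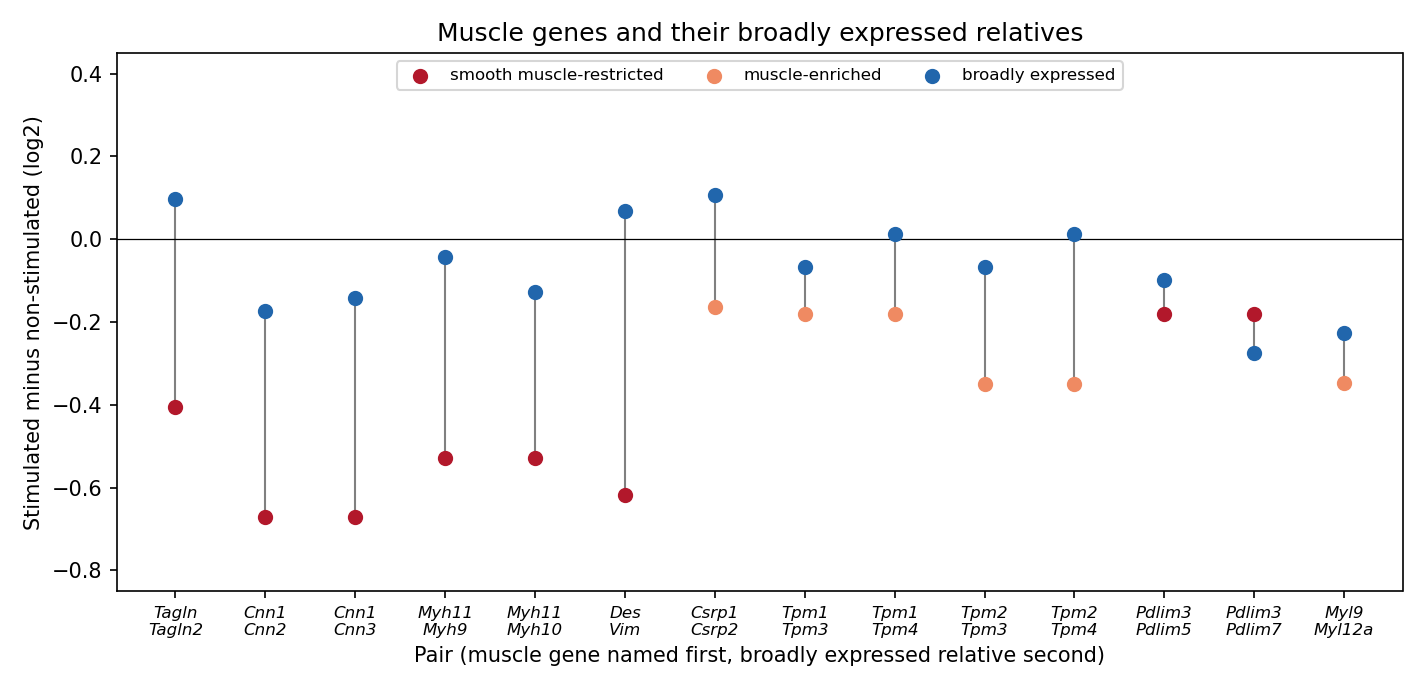
The vertical axis is the stimulated minus the non-stimulated log2 signal, each column is a pair with its muscle gene (red or orange) and its broadly expressed relative (blue). The muscle gene is the lower point in 13 of 14 pairs, with the longest gap for Des and Vim, and the higher point for Pdlim3 and Pdlim7.

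Intermediate filament genes split. Des, desmin, the filament of muscle cells, read 7.23 on the stimulated array and 7.85 on the non-stimulated array, 1.54-fold lower. Vim, vimentin, the filament of mesenchymal cells, read 13.16 stimulated and 13.10 non-stimulated, a difference of 0.07, and a second Vim probeset gave -0.01. Synm, synemin, which joins desmin and vimentin filaments to the cell's anchorage sites, read 7.12 on both arrays. A dim probeset shared by Des and another gene read 5.58 stimulated and 5.53 non-stimulated, near background.

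Among the genes that set myosin phosphorylation, calcium or membrane organisation, Cav1 stood lowest. Cav1, caveolin 1, the coat protein of caveolae, which are dense on smooth muscle and fibroblast membranes, read 8.98 on the stimulated array and 9.65 on the non-stimulated array, 1.59-fold lower. Ppp1r14a (CPI-17), an inhibitor of myosin phosphatase in smooth muscle, read 6.52 stimulated and 6.89 non-stimulated, 1.29-fold lower. Mylk, myosin light chain kinase, read 6.97 stimulated and 7.13 non-stimulated, a difference of -0.16, and Ppp1r12a, the targeting subunit of myosin phosphatase, read 9.23 stimulated and 9.34 non-stimulated, a difference of -0.10. Thus the phosphatase inhibitor was further down than the kinase or the phosphatase subunit. Pln, phospholamban, the brake on the calcium pump of the reticulum, read 5.54 stimulated and 5.44 non-stimulated, under background on both, so that no difference was measured.

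The crosslinkers and scaffolds of the actin network differed little, with 9 of 10 lower and a median of -0.15. Of all genes above background, 48.2% were lower and 7.64% were lower by at least 0.25. Pdlim7 (8.48 stimulated, 8.75 non-stimulated), a PDZ and LIM domain scaffold, and Synpo2 (6.32 stimulated, 6.59 non-stimulated), myopodin, which bundles actin in muscle, were the 2 past 0.25, at -0.27 each. The related scaffolds Pdlim3 and Pdlim5 differed by -0.18 and -0.10. The alpha-actinins Actn4 and Actn1 differed by -0.19 and -0.13, filamin A (Flna) by -0.07 and palladin (Palld) by -0.06. Csrp1, a LIM protein of smooth muscle, read 11.31 stimulated and 11.47 non-stimulated, a difference of -0.16. Csrp2, its relative, was the one gene higher in this set, at 7.45 stimulated and 7.34 non-stimulated. Its difference of 0.11 was the highest of all members. Csrp2 was classed as broadly expressed but is also known from smooth muscle, and no other class was tried for it.

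Both transcription factors read lower by less than 0.25. Srf read 8.34 on the stimulated array and 8.53 on the non-stimulated array, a difference of -0.19, and Myocd, myocardin, read 5.757 stimulated and 5.999 non-stimulated, a difference of -0.24, close to background. The other SRF partners Mrtfa and Mrtfb, named after their values were seen, differed by -0.04 each.

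**Figure D4:**
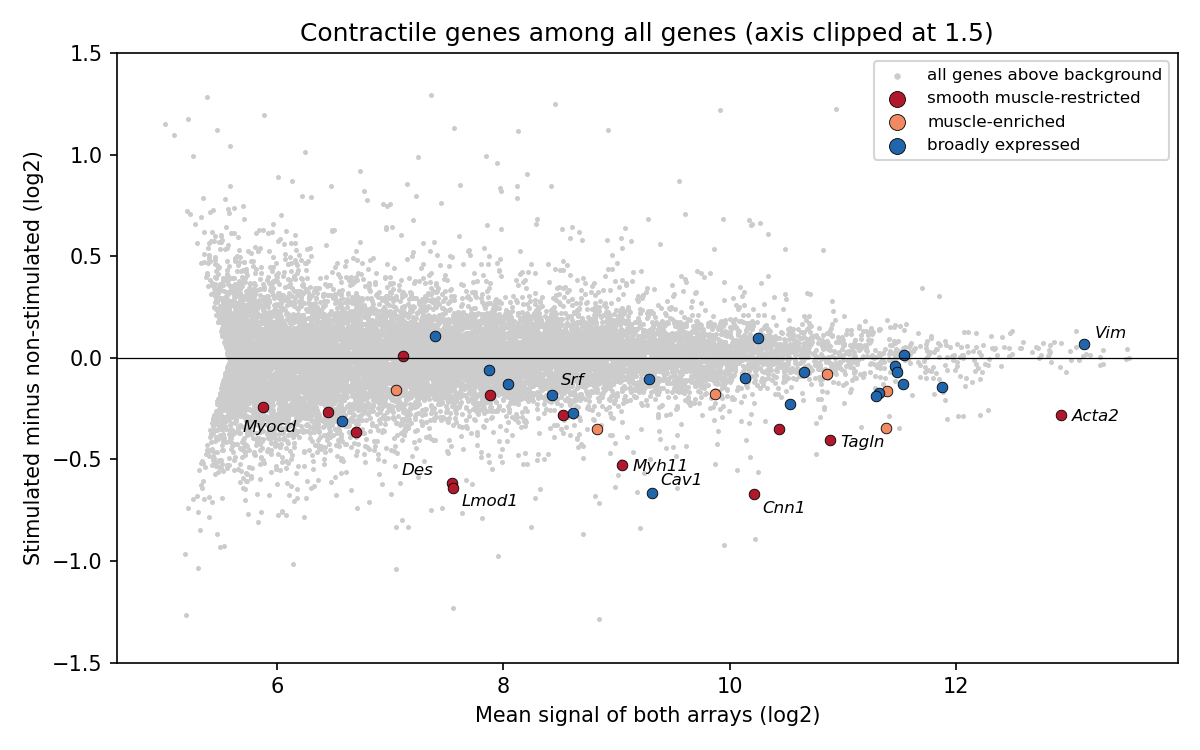
The horizontal axis is the mean log2 signal of both arrays and the vertical axis the stimulated minus the non-stimulated log2 signal, with all genes above background in grey and members in colour; 12 genes beyond the vertical range are not drawn. Cnn1, Cav1 and Myh11 lie at the lower edge of genes of like signal, Lmod1 and Des likewise, and Vim lies just above 0.

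Because SRF is known to act through CArG boxes, the RefSeq promoter windows of the members (GRCm38.p6, 250 bases before to 50 after each gene's start) were searched for one on both strands, meaning CC, then 6 bases that are each A or T, then GG, which reads alike on either strand. Windows were held for 35 of the 40 members, without Actg2, Csrp2, Myh11, Myocd and Tagln. A box stood in 4 of the 35 (11.4%), against 181 of 10954 genes above background (1.65%) and 1.81% of all genes with a window. The 4 were Cnn2, Myl6, Myl9 and Srf itself, 3 broadly expressed and 1 muscle-enriched gene, and none of the 10 smooth muscle-restricted genes with a window held one. The 4 upstream windows are printed because they are the ones with a match, 5′ to 3′ on the gene's strand without the transcribed bases, with the boxes in capitals:
Cnn2 promoter, chr10:79988350-79988599, plus strand: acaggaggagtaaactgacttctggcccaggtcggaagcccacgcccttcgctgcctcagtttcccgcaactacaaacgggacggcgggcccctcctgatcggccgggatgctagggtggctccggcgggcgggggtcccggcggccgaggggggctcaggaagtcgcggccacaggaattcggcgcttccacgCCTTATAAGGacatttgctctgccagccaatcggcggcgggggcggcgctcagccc
Myl6 promoter, chr10:128493010-128493259, minus strand: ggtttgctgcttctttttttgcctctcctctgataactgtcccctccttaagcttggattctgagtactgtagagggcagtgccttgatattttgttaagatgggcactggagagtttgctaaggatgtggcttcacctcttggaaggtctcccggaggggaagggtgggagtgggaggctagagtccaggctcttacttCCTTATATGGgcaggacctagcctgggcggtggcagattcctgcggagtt
Myl9 promoter, chr2:156775214-156775463, plus strand: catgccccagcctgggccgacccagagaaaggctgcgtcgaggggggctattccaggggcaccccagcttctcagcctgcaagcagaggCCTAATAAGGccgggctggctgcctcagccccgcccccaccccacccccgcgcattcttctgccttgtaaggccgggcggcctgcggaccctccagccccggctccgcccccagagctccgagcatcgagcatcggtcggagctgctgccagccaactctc
Srf promoter, chr17:46556163-46556412, minus strand: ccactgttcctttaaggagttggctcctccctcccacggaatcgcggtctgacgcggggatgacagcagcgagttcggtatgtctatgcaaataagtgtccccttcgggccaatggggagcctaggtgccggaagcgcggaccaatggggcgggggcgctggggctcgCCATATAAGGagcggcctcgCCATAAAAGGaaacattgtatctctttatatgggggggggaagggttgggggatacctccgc

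The Srf window holds 2 boxes, beginning 82 and 62 bases before the start, and the boxes of Cnn2, Myl6 and Myl9 begin 56, 50 and 161 bases before it. With 1 G or C allowed among the 6 core bases, 9 of the 35 members held a match (25.7%), against 10.8% of genes above background, and 3 of the 10 smooth muscle-restricted genes did. The Acta2 window is shown as the best known of these, with its 2 such matches in capitals, which begin 84 and 34 bases before the start:
Acta2 promoter, chr19:34255374-34255623, minus strand: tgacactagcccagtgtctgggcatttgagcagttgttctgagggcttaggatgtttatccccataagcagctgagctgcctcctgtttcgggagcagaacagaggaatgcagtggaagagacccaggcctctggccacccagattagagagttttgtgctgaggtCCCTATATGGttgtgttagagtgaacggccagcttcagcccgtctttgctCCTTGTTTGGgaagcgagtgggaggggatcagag

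The 4 members with an exact box had differences from -0.35 (Myl9) to -0.17 (Cnn2) and a median of -0.25, and the 30 members above background with a window but no box ran from -0.67 to 0.10 with a median of -0.16. The members furthest down with a window, Cnn1, Cav1, Lmod1 and Des, held no exact match in it. Sequence outside the windows was not searched. The 5 members without a window had a median of -0.35. Lower by at least 0.25 were 2 of the 4 with an exact box, 10 of the 30 without one and 3 of the 5 without a window. Of all genes above background, 7.64% were. Over all genes above background, 11.0% of the 181 with a box were lower by at least 0.25, against 7.11% of the 10954 with a window. A match is a stretch of letters and no evidence of binding, and its part in the differences was not tested.

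Beyond the members, 90 further genes of actomyosin, adhesion to it and smooth muscle signalling were on the array, and 84 of them were above background. Of these 84, 63 were lower on the stimulated array and 21 higher (48.2% of all genes above background were lower). By at least 0.25, 18 were lower (7.64% of all genes were) and 2 higher (6.68% of all genes were). The median difference of the 84 was -0.08. The 3 lowest were Gucy1a1 (6.54 stimulated, 7.57 non-stimulated; 2.05-fold lower), a subunit of the nitric oxide receptor guanylate cyclase, the LIM protein gene Fhl2 (9.21 stimulated, 9.85 non-stimulated; 1.56-fold lower) and Gucy1b1, the other cyclase subunit (8.72 stimulated, 9.30 non-stimulated; 1.49-fold lower). The 3 highest were Susd5 (6.72 stimulated, 6.16 non-stimulated), Cacna1c, the pore of the L-type calcium channel (8.65 stimulated, 8.40 non-stimulated), and Klf4 (8.34 stimulated, 8.14 non-stimulated), a factor known to oppose the smooth muscle program. Beside Cav1, the caveola genes Cavin2, Cavin1 and Cav2, named after their values were seen, differed by -0.38, -0.28 and -0.26. Vcl (vinculin) and Zyx (zyxin), chosen likewise, differed by -0.29 and -0.26, while the regulators Rhoa and Rock1 differed by -0.04 and 0.03.

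Markers of other contractile or stromal cells were read on the same arrays. A sum of linear signals weighs each probeset by its own response, so it is read only between the arrays. All 6 pericyte markers were above background and 5 of them were lower (48.2% of all genes above background were). Their median difference was -0.29, against -0.35 for the smooth muscle-restricted and -0.12 for the broadly expressed members. Their summed linear signal was 1398 on the stimulated and 1851 on the non-stimulated array, of which Mcam gave 779.9 stimulated and 1121 non-stimulated. Examples are Mcam (9.61 stimulated, 10.13 non-stimulated) and Cspg4 (8.04 stimulated, 8.36 non-stimulated). Their part in the lower smooth muscle values was not tested. Of 7 skeletal muscle markers 6 were above background, with a median difference of 0.00 and a summed signal of 501.9 stimulated and 528.5 non-stimulated. Among them, Acta1 (6.69 stimulated, 7.20 non-stimulated) differed by -0.51, away from that median, and Myog (6.70 stimulated, 6.73 non-stimulated) by -0.03. Of 6 cardiac markers 4 passed on at least 1 array (summed signal 349.0 stimulated and 370.0 non-stimulated), with Tnnt2 (6.60 stimulated, 6.57 non-stimulated) and Tnni3 (6.49 stimulated, 6.55 non-stimulated) among them. Of 3 markers of interstitial cells of Cajal, the pacemaker cells of the gut wall, Etv1 alone passed (8.14 stimulated, 7.95 non-stimulated; summed signal 355.9 stimulated and 336.7 non-stimulated), Kit and Ano1 being under background on both arrays. Passing in at least 1 array were 3 of 5 endothelial (Pecam1 5.83 stimulated and 5.87 non-stimulated, Kdr 5.73 stimulated and 5.80 non-stimulated), 3 of 6 epithelial (Krt8 6.23 stimulated and 6.45 non-stimulated, Muc2 6.12 stimulated and 5.99 non-stimulated), 3 of 4 leukocyte (Cd53 9.56 stimulated and 9.73 non-stimulated, Cd37 6.10 stimulated and 6.21 non-stimulated) and 4 of 5 enteric neuron and glia markers (Uchl1 8.51 stimulated and 8.62 non-stimulated, Tubb3 8.24 stimulated and 8.11 non-stimulated). The median difference of the passing markers was -0.04 for endothelium, -0.19 for epithelium, -0.10 for leukocytes and -0.14 for enteric neurons and glia. Muc2 and Tubb3 thus ran against the median of their lists. The endothelial markers named read close to background, and the leukocyte marker Ptprc was under it on both arrays.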

How the data were processed

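RNA of each pool was extracted with Trizol, purified with a column kit, then amplified and labelled with biotin (per the labels' protocols). The authors deposited 1 log2 value per probeset and array, made with Affymetrix Expression Console and RMA, per the submitters' processing notes. RMA subtracts background, gives both arrays 1 distribution and summarises probes, so that an overall shift between the arrays cannot be seen. Of 41345 probesets, 23521 were paired with 1 gene by the platform annotation and were used. Symbols of 23328 of them came from RefSeq (GRCm38.p6). For 1082 genes with several probesets the one with the highest mean was kept. A gene was above background when it passed that level on at least 1 array. With 1 array per condition no test was run. Having 2 arrays limits the precision. The paralogue pairs of Pdlim3 and Myl9 were added to those planned. All 40 members are named, with the 3 highest and 3 lowest wider genes above background on both arrays and, by plan, the top 2 markers of each list. For eosinophils, Epx and Prg2 were named in place of Siglecf, under background on both arrays (4.85 stimulated, 5.43 non-stimulated). Actc1, Kit and Ptprc were named beyond this plan, as were the genes said to be named or chosen after their values were seen. Members and lists were chosen with earlier results of these data known. Alternatives were no background filter, the 99th percentile, values raised to background, the mean of probesets, centring on the median or a lowess trend, means, lists without their most different member, and other class borders. The counting step was checked on simulated data with known shifts. Tools were Python 3.11.15, pandas 2.3.3, numpy 2.4.6, statsmodels 0.14.6 and matplotlib 3.10.9.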

Additional observations from a re-analysis of the deposited data

How the results depend on the processing

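No paired analysis was possible because each condition is 1 array. Over 11 alternatives the smooth muscle-restricted median lay between -0.37 and -0.28, the broadly expressed median between -0.14 and -0.10, and the restricted minus broad difference of medians between -0.26 and -0.17. With the muscle-enriched genes counted as restricted, the restricted median was -0.28 and the difference of medians -0.17, the only values that moved by over 0.05. The count of members lower by at least 0.25 was 13 to 15 and of those lower by at least 0.5 was 5 over 7 alternatives, and 18 to 20 wider genes were lower by at least 0.25 over 6. Leaving out Myl12a and Vim, whose probesets disagree in sign, was chosen after seeing the data and left the members' counts at 15 and 5. Neither gene was lower by as much as 0.25, so these counts could not change. Of 231 values of single members, 229 moved by at most 0.05. The other 2 were means over probesets, -0.05 for Myl12a and -0.19 for Smtn, and no member changed sign. Most of the 231 could not move, so their number is no measure of stability. The background settings leave the value of a member above background on both arrays as it is. The mean of probesets can change only members with several probesets. CArG matches went to 9 members with 1 core mismatch, against 4 without, by the looser motif itself. The planned identity between related proteins was not run. Signal near background limits Myocd and leaves Pln unmeasured. With background at the 99th percentile, Myl6 and Synpo2 did not pass it either. Both were among the 15 members lower by at least 0.25, and 13 were left.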

Other observations

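Genes that lie next to the members in the RefSeq order of GRCm38.p6 were read as a description of the same chromosomal neighbourhoods. Of 78 neighbouring protein-coding genes above background that are no members, 4 had a difference of -0.25 or below (5.13%, against 7.64% of all genes above background), 5 had one of 0.25 or above, and their median difference was -0.03. Fas, the death receptor gene beside Acta2, read 8.62 on the stimulated array and 8.16 on the non-stimulated array, a difference of 0.46, while Acta2 differed by -0.28. Cav1 differed by -0.67 between 2 neighbours of opposite direction, Cav2 at -0.26 and Met, the hepatocyte growth factor receptor gene, at 0.46 (7.88 stimulated, 7.41 non-stimulated). These neighbours were chosen after their values were seen.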
